A study of Mus musculus with 6 samples.

Results

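Expression of 10 genes that mark alternatively activated and tissue-resident macrophages was compared between Zip13-KO and WT mice in inguinal white adipose tissue (iWAT). They are Arg1, Retnla, Chil3, Mrc1, Cd163, Clec10a, Mgl2, F13a1, Lyve1 and Folr2. The genes were listed by name, and every probe designed on a RefSeq transcript of one of them was read. This gave 11 probes, 2 for F13a1 and 1 for each other gene, and all 10 genes were among the 15306 genes tested. RNA of iWAT, the subcutaneous fat depot of the groin, was compared between 3 WT and 3 Zip13-KO samples, each on 1 array of the 1-colour Agilent SurePrint G3 Mouse GE 8x60K design. Zip13-KO mice lack exons 6 to 8 of Zip13 (Slc39a13), a zinc transporter gene, with a Neo cassette in their place. The deletion is present in all cells of the mouse, so a difference in iWAT cannot be assigned to macrophages, adipocytes or another organ. Controls were WT littermates. All mice were 10 weeks old, had been backcrossed to C57BL/6J for at least 7 generations, and ate powdered feed because Zip13-KO mice have missing teeth. The sources used here do not give the sex of these mice, whether their feed was the standard or the high-fat one, or whether an array holds 1 animal, so the spread between arrays may be partly technical.

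Macrophages of adipose tissue take up lipid, debris and iron and secrete factors that act on neighbouring cells. Interleukin-4 and interleukin-13, made by lymphoid cells and eosinophils, act through their receptor on the transcription factor STAT6 and turn on a set of genes that in the mouse includes Arg1, Retnla, Chil3, Mrc1, Clec10a and Mgl2. Macrophages that live in the tissue for long carry a partly different set, with Lyve1, Folr2, Cd163, F13a1 and Mrc1. Several of these genes are not used by macrophages alone: Lyve1 is also made by lymphatic endothelium, Clec10a and Mgl2 by dendritic cells, Chil3 by neutrophils and monocytes, and Retnla in adipose tissue by other cells as well.

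Promoters of 3 of the genes are shown. Sequences are from RefSeq on GRCm38.p6 and cover 250 bases before to 50 bases after the transcription start, read 5′ to 3′ on the strand of the gene. Of the 10 genes, 7 matched, with 9 promoters. Arg1, Clec10a and Lyve1 did not match and are named only. Capitals mark a STAT-type palindrome (TTC, any 3 or 4 bases, GAA, written TTCNNNGAA or TTCNNNNGAA) or the core of PU.1, the factor that defines the myeloid lineage (GAGGAA, which reads TTCCTC on the other strand). Chil3 and Retnla are shown because both belong to the classical set induced by interleukin-4 and yet behaved differently between genotypes. Mrc1 is shown as a resident and alternative activation gene that lay between them.
Chil3 promoter, chr3:106167515-106167814, minus strand: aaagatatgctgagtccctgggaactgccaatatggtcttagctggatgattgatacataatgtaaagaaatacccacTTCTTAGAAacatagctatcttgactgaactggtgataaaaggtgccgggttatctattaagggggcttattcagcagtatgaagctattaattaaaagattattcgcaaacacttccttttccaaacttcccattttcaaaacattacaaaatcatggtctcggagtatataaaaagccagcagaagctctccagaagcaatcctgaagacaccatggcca
Retnla promoter, chr16:48842359-48842658, plus strand: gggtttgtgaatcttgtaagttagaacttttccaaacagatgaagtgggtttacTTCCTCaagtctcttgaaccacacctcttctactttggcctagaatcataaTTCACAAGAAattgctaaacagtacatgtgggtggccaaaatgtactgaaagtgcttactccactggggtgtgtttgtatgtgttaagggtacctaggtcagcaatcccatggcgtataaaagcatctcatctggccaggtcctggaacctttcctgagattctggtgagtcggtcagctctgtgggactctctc
Mrc1 promoter, chr2:14229164-14229463, plus strand: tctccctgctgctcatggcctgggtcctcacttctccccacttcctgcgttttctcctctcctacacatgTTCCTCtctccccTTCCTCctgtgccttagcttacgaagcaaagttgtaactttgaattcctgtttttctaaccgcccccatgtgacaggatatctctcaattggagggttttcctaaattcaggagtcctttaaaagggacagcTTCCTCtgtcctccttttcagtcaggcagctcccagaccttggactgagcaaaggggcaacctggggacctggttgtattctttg
The Chil3 promoter held TTCTTAGAA from position -172 relative to the start, and the Retnla promoter held TTCACAAGAA from position -145, on both strands as palindromes do. Retnla also had 1 PU.1 core at -196, and Mrc1 had 3, at -180, -167 and -35. F13a1 had 2 cores in one promoter and 1 in its other one, Mgl2 had 1, and the promoters of Cd163 and Folr2 had no match in this window. Among 32851 promoters of the same length, 6.95% held the 4-base form of the palindrome, 8.30% the 3-base form and 28.3% the PU.1 core. The matches describe letters and not binding.

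Zip13 itself was lower in Zip13-KO iWAT, at 6.63 ± 0.15 against 10.96 ± 0.30 in WT (SD, n = 3 each, normalized log2 intensity), a log2 fold change of -4.33 (adjusted p = 0.00128, limma). The position of its probe relative to the deleted exons was not analysed here. Over all genes, 1576 were called higher (10.3%) and 1282 lower (8.38%) in Zip13-KO iWAT, a call being a Benjamini-Hochberg adjusted p under 0.05 together with a fold change above 1.5 (a log2 value of 0.58). Arrays correlated at r = 0.986 to 0.995 within a genotype and at 0.960 to 0.984 between genotypes. Of the spots, 62.5 to 63.2% were well above background on WT arrays and 58.8 to 60.4% on Zip13-KO arrays. By the position numbers in the file headers, column 1 of the slide held the 3 WT arrays and Zip13-KO replicate 1, and column 2 held the other two Zip13-KO arrays. With the column as a block, so that only Zip13-KO replicate 1 was set against WT, limma called 0 genes higher and 7 lower, Chil3 among them (2724 higher and 2079 lower at an unadjusted p under 0.05). Column 2 held no WT array, so there column and genotype cannot be told apart.

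In Zip13-KO iWAT 7 of the 10 genes were called lower by limma, where 8.38% of all genes tested were called lower. None was called higher, where 10.3% of all genes were. The count was also 0 of 10 at an unadjusted p under 0.05 by limma (3876 of 15306 genes). By the methods' t-test without adjustment it was 0 of 10 too (1552 genes called higher). The 7 genes called lower were Arg1, Chil3, Folr2, Mrc1, Clec10a, F13a1 and Lyve1. Arg1 passed the filter through its WT arrays alone. Where a probe had to be well above background on all 6 arrays, 6 of 9 were called lower, against 1163 of 14633 genes. Cd163 and Mgl2 had negative log2 fold changes that were not called, and Retnla had a positive one that was not called. The median log2 fold change of the 10 genes was -1.11, against -0.00 over all genes tested. For 8 of the 10 genes all 3 Zip13-KO arrays were below all 3 WT arrays, which held for 25.9% of all genes. With the slide column as a block, 1 of the 10 was called lower, Chil3, and 5 had an unadjusted p under 0.05 on the lower side. In column 1 alone, Zip13-KO replicate 1 deviated from the WT mean by -0.54 (Cd163) to -3.15 (Chil3) on the log2 scale for 7 of the 8 genes and was not well above background for Arg1. Its deviation was -0.18 for Mgl2 and 0.27 for Retnla. In bulk tissue, fewer cells of a type and less RNA per cell cannot be told apart.

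**Figure D1:**
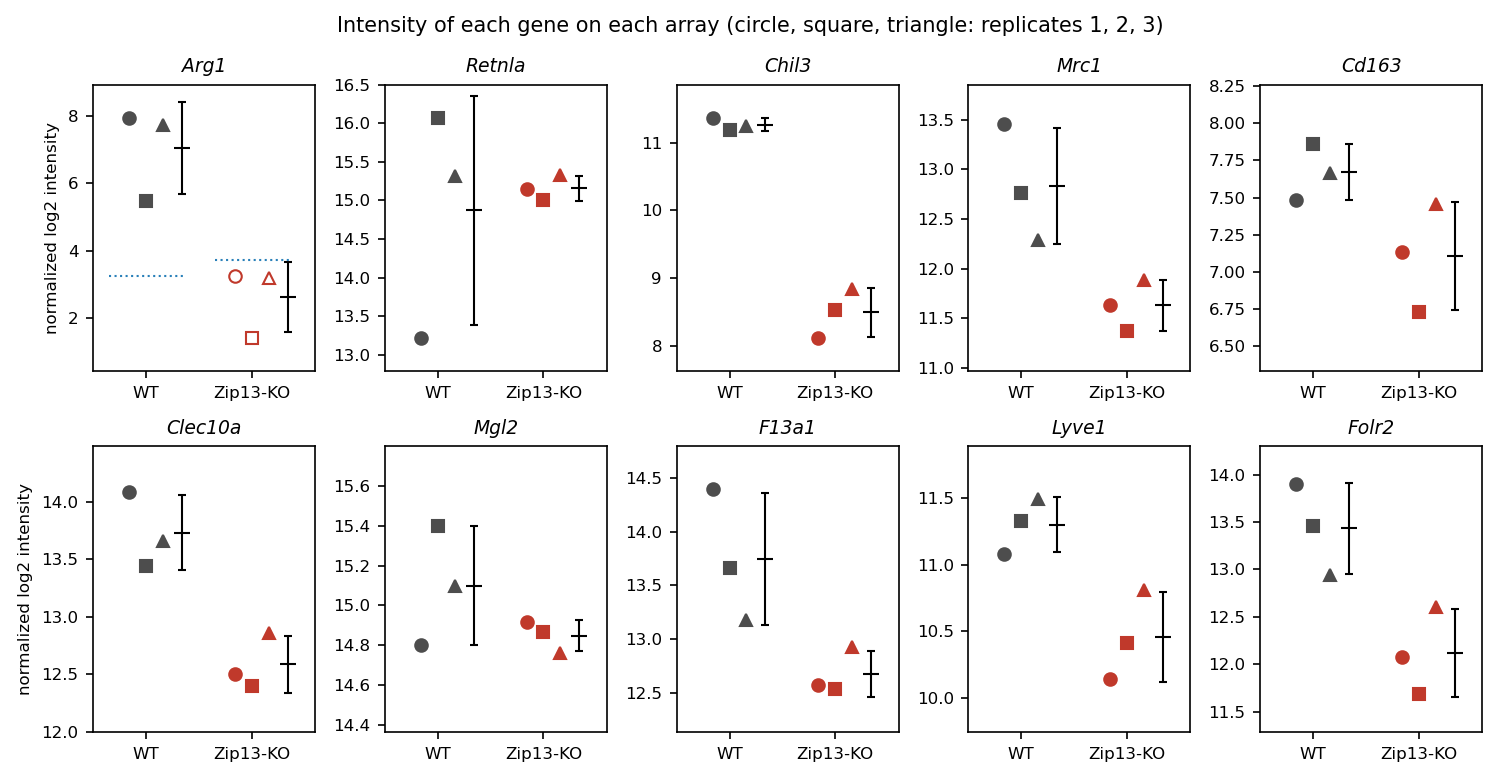
Normalized log2 intensity (vertical axis, own scale for each gene, not starting at 0) of the 10 genes on the 3 WT (grey) and 3 Zip13-KO (red) arrays, with mean and SD in black beside the points. Open symbols are not well above background, and the dotted lines in the Arg1 panel are the mean over arrays of the lowest value well above background. The genotypes overlap for Retnla and Mgl2, and the 3 red points lie below the 3 grey ones in the other 8 panels.

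Enzymes and secreted products of alternative activation came at both ends of the range. Arg1 encodes arginase 1, which turns arginine into ornithine and urea and so competes with nitric oxide synthase. Its WT arrays read 7.95, 5.49 and 7.73 and its Zip13-KO arrays 3.26, 1.42 and 3.20 on the normalized log2 scale. No Zip13-KO array was well above background for Arg1 while all 3 WT arrays were, so its level in Zip13-KO iWAT has only an upper bound. By limma Arg1 was lower (adjusted p = 0.0118), by at least 10.2-fold when each Zip13-KO value was replaced by the dimmest signal that passed the background call on its array (3.56 to 3.80). WT replicate 2 was lower than the other two WT arrays by more than 2 log2 units, and it too was well above background. The size of the fitted change depended on the background correction: it was -4.43 on the log2 scale with the processed signal, -1.62 with normexp (adjusted p = 0.0172), -1.96 without background correction (adjusted p = 0.0140) and -1.96 in the deposited table (adjusted p = 0.0141), so the bound holds for the processed signal. Leaving out any 1 array kept the Arg1 call (adjusted p = 0.0177 to 0.0408 by limma). All these calls rest on Zip13-KO signals not well above background, so these p-values do not measure how firm the call is.

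Chil3 encodes Ym1, a secreted chitinase-like lectin without chitinase activity. It read 11.37, 11.18 and 11.25 on the WT arrays and 8.12, 8.53 and 8.84 on the Zip13-KO arrays, all well above background. The WT arrays lay within 0.19 of each other, and the nearest Zip13-KO array was 2.34 below them. Its log2 fold change was -2.77 (SE, standard error of the fold change, 0.19, adjusted p = 0.00326), or 6.82-fold lower in Zip13-KO iWAT. Among the 10 genes, Chil3 was the one called under every alternative run, with log2 fold changes of -3.15 to -2.51.

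Retnla encodes RELM alpha (Fizz1), a small cysteine-rich secreted protein. It read 13.22, 16.08 and 15.32 on the WT arrays and 15.15, 15.00 and 15.32 on the Zip13-KO arrays. The WT arrays spanned 2.86 log2 units, with replicate 1 far below the others, and the Zip13-KO arrays, spanning 0.32, fell inside that range. The log2 fold change was 0.29 (SE 0.70, 95% confidence interval -1.41 to 1.98, adjusted p = 0.771), so falls of up to 1.41 and rises of up to 1.98 on the log2 scale lie within the interval. Without WT replicate 1 the sign turned, to -0.54 (adjusted p = 0.147).

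Scavenger and lectin receptors fell by about 2-fold or did not pass. Mrc1 encodes CD206, the mannose receptor, which takes up glycoproteins. It read 13.45, 12.76 and 12.29 on the WT arrays and 11.64, 11.37 and 11.89 on the Zip13-KO arrays, and the genotypes were 0.40 apart at their nearest arrays. The log2 fold change was -1.20 (SE 0.30, adjusted p = 0.0283). Mrc1 was no longer called when WT replicate 2 or any single Zip13-KO array was left out (adjusted p = 0.0537 to 0.0912, log2 fold change -1.33 to -1.07).

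Clec10a, which encodes the galactose-type lectin Mgl1, read 14.08, 13.44 and 13.66 on the WT arrays and 12.50, 12.40 and 12.86 on the Zip13-KO arrays. All WT arrays were at least 0.58 above all Zip13-KO arrays. Its log2 fold change was -1.14 (SE 0.20, adjusted p = 0.0110), and the call held without any 1 array (adjusted p at most 0.0462). Its close relative Mgl2, a lectin of the same family, read 14.80, 15.40 and 15.10 on the WT arrays and 14.92, 14.87 and 14.76 on the Zip13-KO arrays. For Mgl2 the genotypes overlapped, with WT replicate 1 below 2 of the Zip13-KO arrays, and the log2 fold change was -0.25 (95% confidence interval -0.63 to 0.13, adjusted p = 0.250). The interval leaves out a rise of the size of 1.5-fold and just includes a fall of that size. The difference of Mgl2 less Clec10a within an array was 0.72, 1.96 and 1.44 in WT and 2.42, 2.47 and 1.90 in Zip13-KO iWAT. The genotypes overlapped in this difference (p = 0.2, exact two-sided permutation test). The pair was chosen after its values were seen, so that p-value is only a description. Probe sequences were not analysed here, and binding of one probe to the RNA of both genes was not tested.

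Cd163 encodes the receptor that clears haemoglobin bound to haptoglobin. It read 7.49, 7.86 and 7.67 on the WT arrays and 7.13, 6.73 and 7.46 on the Zip13-KO arrays. Zip13-KO replicate 3 was only 0.03 below the lowest WT array, and the log2 fold change of -0.56 (SE 0.20, adjusted p = 0.0736) was not called. Without that array it was -0.74 and was called (adjusted p = 0.0442).

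The remaining genes mark resident macrophages near vessels. Folr2 encodes folate receptor beta. It read 13.90, 13.46 and 12.94 on the WT arrays and 12.08, 11.68 and 12.60 on the Zip13-KO arrays, with 0.34 between the nearest arrays of the genotypes. Its log2 fold change was -1.31 (SE 0.32, adjusted p = 0.0249), and it was no longer called without WT replicate 1 or 2 or without Zip13-KO replicate 1 or 2 (adjusted p = 0.0521 to 0.0797).

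F13a1 encodes the A subunit of coagulation factor XIII, a transglutaminase that crosslinks fibrin. Its brighter probe read 14.40, 13.66 and 13.18 on the WT arrays and 12.57, 12.53 and 12.92 on the Zip13-KO arrays, a log2 fold change of -1.07 (SE 0.31, adjusted p = 0.0414). Its other probe read 7.86, 7.29 and 6.79 on the WT arrays and 5.93, 6.01 and 6.16 on the Zip13-KO arrays, a log2 fold change of -1.28 (adjusted p = 0.0201 over all probes kept). Both probes ordered the WT arrays alike, with replicate 1 highest and replicate 3 lowest. The call of F13a1 was lost when WT replicate 2 or any single Zip13-KO array was left out (adjusted p = 0.0705 to 0.119), and with each array's 75th percentile subtracted in place of quantile normalization (adjusted p = 0.0522).

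Lyve1 encodes a hyaluronan receptor. It read 11.09, 11.33 and 11.49 on the WT arrays and 10.14, 10.41 and 10.81 on the Zip13-KO arrays, with 0.27 between the genotypes. The log2 fold change was -0.85 (SE 0.20, adjusted p = 0.0218), the smallest among the 7 genes called. It was no longer called without WT replicate 2 or 3 or without Zip13-KO replicate 1 or 2 (adjusted p = 0.0555 to 0.0725). Of 7 tested genes listed as markers of lymphatic endothelium, the other main source of Lyve1, 3 were called lower (Pdpn, Nts and Thy1) and 7 had log2 fold changes below 0, with a median of -0.77. Of all genes tested, 8.38% were called lower. Prox1, the defining factor of that cell type, had a log2 fold change of -0.50 (adjusted p = 0.164). Flt4 (-0.05, adjusted p = 0.909) and Mmrn1 (-0.61, adjusted p = 0.0890) were not called. The summed intensity of the tested lymphatic markers was 16986 to 29361 on WT arrays and 10573 to 12667 on Zip13-KO arrays. Thy1 was the brightest of them, at a WT mean of 14.04 on the log2 scale, followed by Pdpn at 11.64, so the sum mainly follows Thy1. Whether the Thy1 and Pdpn signals came from lymphatic endothelium or from other cells was not tested, nor was the part of the listed genes in the Lyve1 result.

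**Figure D2:**
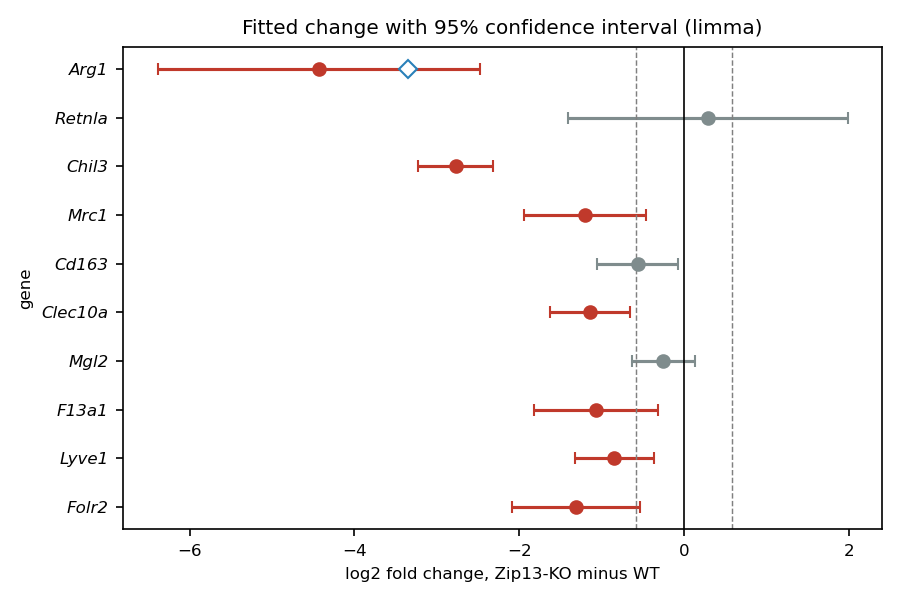
Fitted log2 fold change, Zip13-KO minus WT, of each gene (points) with its 95% confidence interval from limma. Red genes were called lower, grey genes were not called, dashed lines mark 1.5-fold, and the blue diamond is the bound for Arg1, whose fitted value rests on Zip13-KO signals not well above background. Intervals of Retnla and Mgl2 cross 0.

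For a single gene, an exact permutation test of 3 against 3 arrays cannot give less than p = 0.1 (two-sided). That value was reached by all 8 genes whose genotypes did not overlap, while Mgl2 gave 0.3 and Retnla 0.9.

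The order of the arrays within a genotype was mixed in WT and more alike in Zip13-KO iWAT. WT replicate 1 was the highest WT array for Arg1, Chil3, Mrc1, Clec10a, F13a1 and Folr2 and the lowest for Retnla, Cd163, Mgl2 and Lyve1. Zip13-KO replicate 3 was the highest Zip13-KO array for 8 genes, all but Arg1 and Mgl2, and Zip13-KO replicate 2 was the lowest for 7, all but Chil3, Mgl2 and Lyve1. In WT replicate 1 the tested adipocyte markers also had the lowest median of the 6 arrays (-0.46 relative to their WT mean, against 0.28 and 0.13 in the other WT arrays) and stromal markers the highest (0.46, against -0.06 and -0.51).

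**Figure D3:**
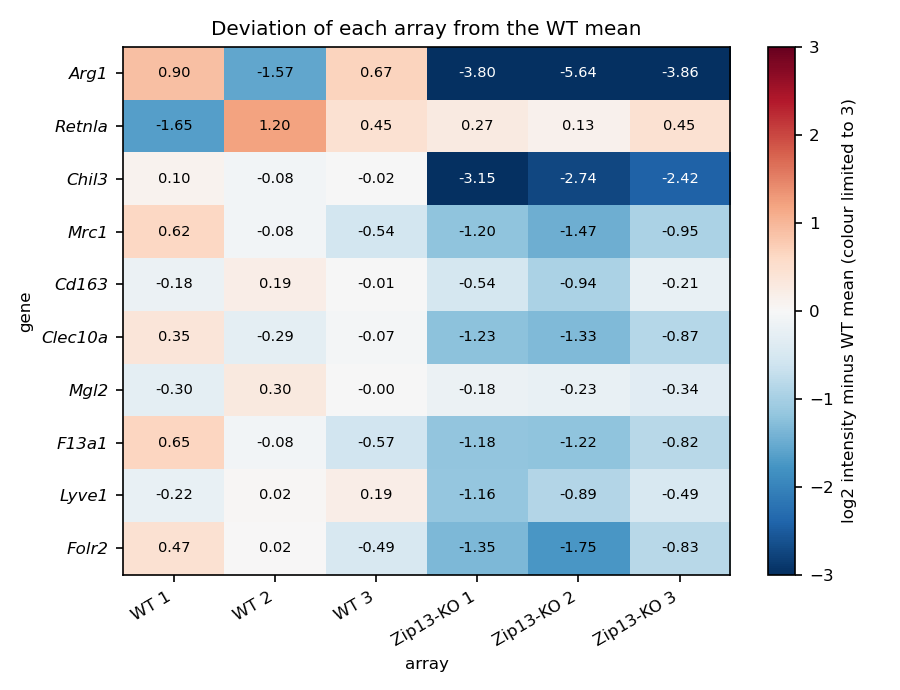
Log2 intensity of the 10 genes (rows) on the 6 arrays (columns), each relative to the mean of the WT arrays, as colour and number. Colour is limited to 3 log2 units, and Arg1 values on Zip13-KO arrays are not well above background. Blue fills the Zip13-KO columns except in the Retnla row, and WT replicate 1 is red in some rows and blue in others.

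The genes were next set beside 16 general macrophage markers, such as Csf1r, the receptor for the growth factor of macrophages, and Adgre1, a surface marker. Of these, 15 were called lower, from -2.57 for Fcgr1 to -0.83 for Cd14, and Itgam at -0.17 was not (adjusted p = 0.234). The median log2 fold change was -1.26, and the summed intensity of the list was 154872 to 221307 on WT arrays and 68977 to 84077 on Zip13-KO arrays. Csf1r went from 15.07 ± 0.33 to 14.04 ± 0.12 and Ctss, a lysosomal protease, from 15.14 ± 0.21 to 13.84 ± 0.13 (SD, n = 3 each). The 10 genes were then expressed as their deviation from the WT mean less the median deviation of these markers on the same array.

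On that relative scale Chil3 was -0.20, 0.00 and 0.19 on the WT arrays and -1.76, -1.38 and -1.30 on the Zip13-KO arrays, below all WT arrays. The same held for 0.712% of all genes tested. Arg1 lay below them as well, at 0.60, -1.48 and 0.88 on the WT arrays and -2.41, -4.28 and -2.74 on the Zip13-KO arrays, the latter being signals not well above background. The place of Arg1 on this scale therefore depends on the background correction. Its fitted log2 fold change was -4.43 with the processed signal used here and -1.96 with the deposited values, from which the relative scale was not computed. For comparison, Mrc1, at 0.32, 0.01 and -0.33 in WT and 0.19, -0.10 and 0.17 in Zip13-KO iWAT, stayed inside the WT range on all 3 Zip13-KO arrays, and so did F13a1.

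Retnla, Cd163 and Mgl2 lay above all WT arrays relative to the macrophage markers, as did 92% of all genes tested, since the scale subtracts a marker median of -1.39 to -1.12 on the Zip13-KO arrays. The position of these 3 genes is thus that of most genes. Mgl2 was -0.60, 0.39 and 0.21 in WT and 1.20, 1.13 and 0.78 in Zip13-KO iWAT. Cd163 was -0.49, 0.28 and 0.20 in WT and 0.85, 0.42 and 0.91 in Zip13-KO iWAT. Retnla was -1.96, 1.29 and 0.66 in WT and 1.66, 1.49 and 1.57 in Zip13-KO iWAT. Clec10a and Lyve1 had 2 of the 3 Zip13-KO arrays above the WT range, and Folr2 had 1 above and 1 below it. These differences are a description, and the share of macrophages in the tissue was not measured.

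**Figure D4:**
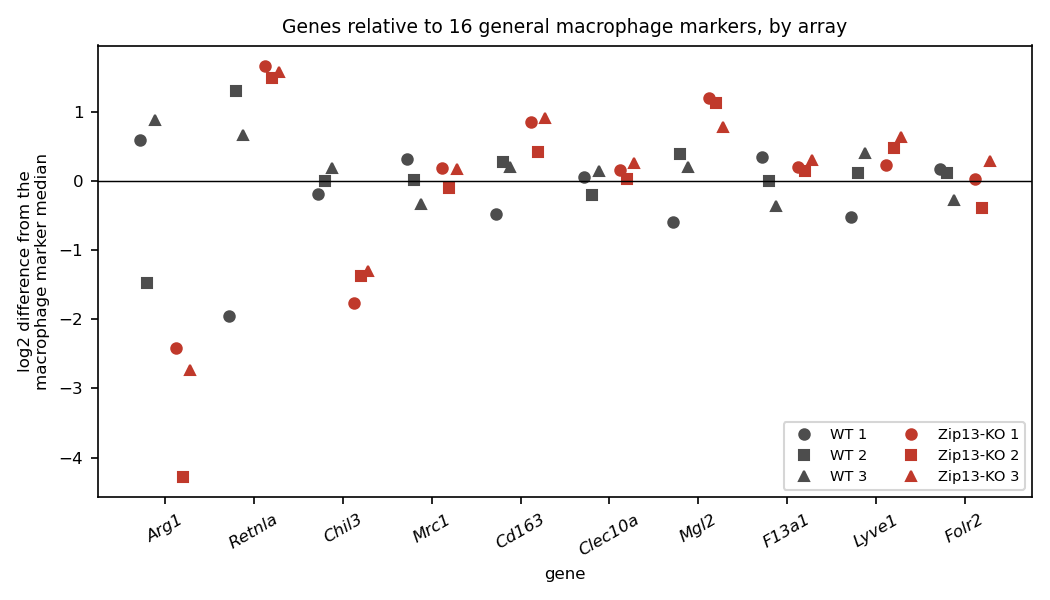
Deviation of each gene from its WT mean less the median deviation of 16 macrophage markers on the same array (vertical axis, log2), for the 3 WT (grey) and 3 Zip13-KO arrays (red). Zip13-KO points lie below the WT points for Arg1 and Chil3, above them for Retnla, Cd163 and Mgl2 (as for 92% of all genes tested), and among them for Mrc1 and F13a1. Arg1 signals on the Zip13-KO arrays are not well above background, and their place depends on the background correction.

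For the signals that induce the alternative state, RNA of 26 genes of the interleukin-4 and interleukin-13 pathway was read, 24 of them tested. Signalling itself was not measured. Il13 and Il5 were not well above background on any array, and Il4 had a log2 fold change of -0.36 (adjusted p = 0.217). Of these, 7 were called lower and 2 higher, with a median of -0.43, where 8.38% of all genes were called lower and 10.3% higher. In 14 of the 24 every Zip13-KO array was under the WT range, against 25.9% of all genes. Among those lower were Il4ra (-0.70, adjusted p = 0.0246) and Il13ra1 (-0.91, adjusted p = 0.0423), subunits of the receptor, and Il33 (-0.89, adjusted p = 0.0212), an alarmin that activates type 2 lymphoid cells. Il10, an anti-inflammatory cytokine, had the largest fall of the list, from 5.92 ± 0.38 to 3.92 ± 0.50 (SD, n = 3 each, adjusted p = 0.00809), and was well above background on 2 of 3 Zip13-KO arrays. Socs3 (-1.13, adjusted p = 0.0110), an inhibitor of cytokine signalling, was also called lower, as were Il10ra and Jak1. Stat6 had a log2 fold change of -0.30 (adjusted p = 0.0253), short of 1.5-fold. Pparg (1.13, adjusted p = 0.0141) and its coactivator Ppargc1b (1.19, adjusted p = 0.0137), which serve alternative activation in macrophages and are also adipocyte genes, were called higher.

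Of 21 other alternative activation genes, 19 were tested, 4 were called lower and 1 higher, with a median of -0.34. Over all genes tested, 8.38% were called lower and 10.3% higher. Msr1, a scavenger receptor for modified lipoproteins, went from 8.53 ± 0.21 to 7.08 ± 0.20 (SD, n = 3 each), a log2 fold change of -1.45 (adjusted p = 0.00479). Tfec, a transcription factor of macrophages, fell by 1.17 on the log2 scale (adjusted p = 0.0155). Il1rn, the antagonist of the interleukin-1 receptor, was at least 1.92-fold lower (adjusted p = 0.00761) and Chil4 (Ym2) at least 1.47-fold lower (adjusted p = 0.0146), both not well above background on the Zip13-KO arrays. The calls of both rest on those dim signals, and the bound of Chil4 does not reach 1.5-fold. Flt1, an endothelial receptor for VEGF, was higher (0.92, adjusted p = 0.0229). The chemokines Ccl17 (0.01, adjusted p = 0.986), Ccl22 (-0.23, adjusted p = 0.579) and Ccl24 (-0.25, adjusted p = 0.632) were not called.

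Among 27 other genes of resident macrophages, all tested, 13 were called lower by limma and 0 higher (0 also at an unadjusted p under 0.05), with a median of -0.99. The shares over all genes were 8.38% lower and 10.3% higher. Ccl8, a chemokine, fell from 15.57 ± 0.68 to 13.24 ± 0.51 and Hmox1, the heme-degrading enzyme, from 13.47 ± 0.80 to 11.27 ± 0.14 (SD, n = 3 each). The complement genes C1qa, C1qb and C1qc had log2 fold changes of -1.45, -1.60 and -1.37, and the transcription factor Maf of -1.11, all called lower. Timd4, a receptor for dying cells on long-lived macrophages, had a log2 fold change of -0.18 (adjusted p = 0.559).

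Classical activation genes were also lower more often than higher. Of 21 genes, 18 were tested, 5 were called lower and 1 higher, with a median of -0.65, where 8.38% of all genes were called lower and 10.3% higher. Fpr1 and Fpr2, receptors for formyl peptides of bacteria that neutrophils use too, had log2 fold changes of -4.06 (adjusted p = 0.00649) and -2.78 (adjusted p = 0.00503), Fpr1 being well above background on 1 of 3 Zip13-KO arrays. Irf5, a transcription factor, and the costimulatory molecules Cd80 and Cd86 were called lower, with log2 fold changes of -0.87, -0.76 and -0.69. Il1b, at -1.73, was not called (adjusted p = 0.0588), nor were Tnf (-0.43, adjusted p = 0.153) and Il6 (-0.95, adjusted p = 0.288). Nos2, the inducible nitric oxide synthase that shares its substrate with Arg1, was higher, at 8.81 ± 0.22 against 7.95 ± 0.05 (SD, n = 3 each, adjusted p = 0.00741).

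Of 18 further genes of arginine handling, 14 were tested, 3 called lower and 2 higher, with a median of -0.22. These small counts stand beside shares of 8.38% lower and 10.3% higher over all genes. Arg2, the mitochondrial arginase, was lower, at a log2 fold change of -1.50 (adjusted p = 0.0362), with 1 of 3 Zip13-KO arrays well above background. Slc7a1, an arginine importer, was lower at -0.69 (adjusted p = 0.010) and Sat1, of polyamine breakdown, at -0.77 (adjusted p = 0.0125). Agmat, named for hydrolysis of agmatine, was higher at 1.41 (adjusted p = 0.00441) and Nos3, the endothelial nitric oxide synthase, at 0.99 (adjusted p = 0.0132). Odc1, which makes putrescine from ornithine, had a log2 fold change of -0.26 (adjusted p = 0.116).

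Relatives of the 10 genes were read from 24 paralogs, 19 of them tested, of which 5 were called lower and 1 higher, with a median of -0.27. For all genes tested the shares were 8.38% lower and 10.3% higher. Chil4, Arg2, Chil1 (-1.01, adjusted p = 0.0302), Cd44 (-1.07, adjusted p = 0.00457), a hyaluronan receptor like Lyve1, and Ly75 (-0.91, adjusted p = 0.00979), an endocytic receptor like Mrc1, were lower. Of the 3 Zip13-KO arrays, Arg2 and Ly75 were well above background on 1 each and Chil4 on 0, so these calls rest on dim signals. Chil6 was higher, from 4.86 ± 0.54 to 6.24 ± 0.51 (SD, n = 3 each, adjusted p = 0.0296). Retn, the adipocyte relative of Retnla, had a log2 fold change of 0.58 (adjusted p = 0.0489) that fell just short of the fold threshold and was not called, and Folr1 one of -0.06 (adjusted p = 0.848). Sharing of signal between the probes of Chil3 and those of Chil4 or Chil6 was not tested.

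Markers of the other cell types that could supply these transcripts moved as follows, where 8.38% of all genes were called lower and 10.3% higher. Of 16 tested monocyte and neutrophil markers, 9 were called lower (median -1.23, summed intensity 94412 to 107104 on WT and 73239 to 77423 on Zip13-KO arrays), among them Plac8 (-1.90) and Mpo (-1.78), while Csf3r was at 0.01. Csf3r was the brightest, at a mean of 15.91 in both genotypes, followed by Plac8 at 14.10 in WT and 12.20 in Zip13-KO iWAT. That sum therefore mainly follows Csf3r and Plac8. Of 11 dendritic cell markers, 3 were called lower (Clec4a4, Itgax and Ciita), with a median of -0.52 and summed intensities of 20579 to 26692 against 14332 to 18067. Ccr7 (-0.66, adjusted p = 0.0554) and Cd83 (-0.25, adjusted p = 0.229) were not called. Of 15 tested markers of eosinophils, mast cells and type 2 lymphoid cells, Fcer1a (-2.52) and Hpgds (-1.33) were lower and Il17rb (0.68) was higher, with a median of -0.71 and summed intensities of 9720 to 25124 against 7094 to 9006. The highest of those sums was WT replicate 1. The mast cell genes Mcpt4 (-1.06, adjusted p = 0.103) and Cpa3 (-1.29, adjusted p = 0.0787) were the 2 brightest, weigh most in the sum, and were not called. Of eosinophil genes, Ccr3 (-0.71, adjusted p = 0.304), Ear1 (-0.47, adjusted p = 0.356) and Prg2 (0.48, adjusted p = 0.219) were not called either. These lists had medians below 0, and their part in the results of the 7 genes called lower was not tested.

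Among the lists for the tissue itself, adipocyte markers had 3 of 12 called higher (Gpd1, Plin1 and Lipe, median 0.64), and Fabp4, at 17.25 ± 0.13 and 17.44 ± 0.04, and Cfd, at 17.45 ± 0.05 and 17.48 ± 0.01 (SD, n = 3 each, WT then Zip13-KO), were well above background on all arrays, as fits the labelled tissue. Blood endothelium had 4 of 12 called higher (Robo4, Cldn5, Cdh5 and Esam, median 0.44), where 10.3% of all genes were called higher. Stromal markers had 3 of 12 called lower (Ly6a, Dpp4 and Pdgfra, median -0.61). Lymph node markers had 2 of 16 called lower (Pax5 among them), near the 8.38% of all genes, with a median of -0.38 and summed intensities of 75656 to 94692 against 58775 to 63097. Of the 16, all had log2 fold changes below 0 and 11 did not overlap between genotypes, against 25.9% of all genes. Of 10 skeletal muscle and 7 mammary markers tested, 0 were called in either direction by limma, with medians of 0.73 and 0.18 and 1 gene of each list higher at an unadjusted p under 0.05. Zip13-KO replicate 3 had the highest muscle sum, 11146 against 2357 to 5144 on the other arrays.

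**Figure D5:**
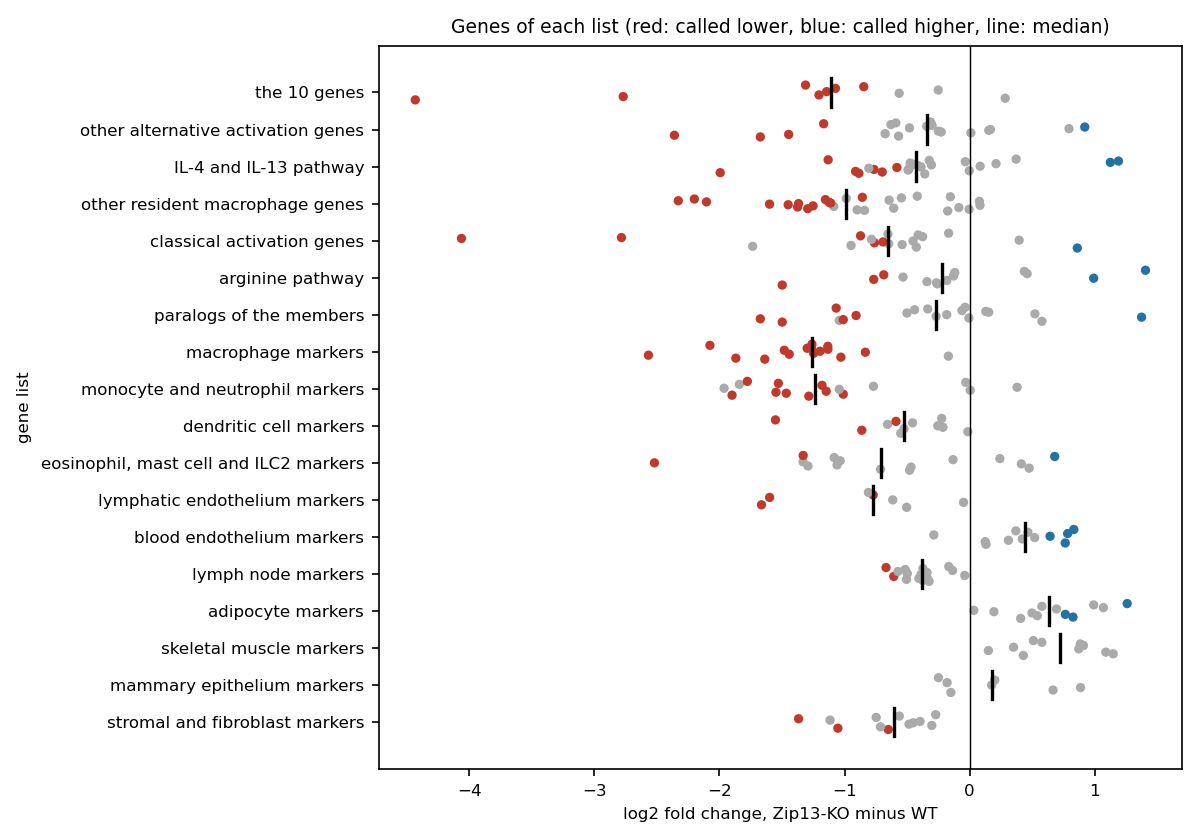
Log2 fold change, Zip13-KO minus WT, of every tested gene (points) of the 10 genes and of 17 other lists (rows), with the median of each list as a black line. Red genes were called lower, blue higher and grey not called. Lists of macrophages, monocytes and neutrophils have medians near -1 and below, and the adipocyte and blood endothelium lists have medians above 0.

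Likeness to the 10 genes was measured as Pearson's r, over the 6 arrays (3 of each genotype, so that the genotype difference enters), with the mean of their standardized values. Among the genes most alike outside the set were Sin3b (0.998), Cand1 (0.998), Pglyrp1 (0.997) and Eid3 (0.996), of which Pglyrp1 and Eid3 were called lower. With each genotype's mean taken off first, so that only the spread within genotypes counted, they were Tmem176a (0.998), Sf3b4 (0.996), Nsmce1 (0.994), Olfr629 (0.994) and Gpr141 (0.991), of which Tmem176a and Gpr141 were called lower. The genes named by the 2 measures differ, and over 6 arrays such values describe these arrays and no more. Each of the 10 genes is part of that mean, which raises its own r, and r was 0.96 for Chil3, 0.83 to 0.93 for 7 others, 0.59 for Mgl2 and -0.06 for Retnla.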

How the data were processed

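Total RNA of iWAT was labelled with 1 dye and hybridized, 1 array per sample. The authors deposited scanner files of Feature Extraction 11.5.1.1 whose processed signal is an intensity corrected for background, and a table of log2 intensities that were quantile normalized. Control and outlier spots were left out, spots of a probe averaged, and log2 of the processed signal was quantile normalized. Of 55681 probes, 28331 (50.9%) were named through RefSeq accessions without version. Probes were kept (33038) if in 1 genotype or both the scanner software called all 3 arrays well above background, and the brightest stood for a gene. Genotypes were compared with limma 3.58.1 in R 4.3.3 with Benjamini-Hochberg adjustment over 15306 genes. The study's integrative test needs regroupings of the arrays and was replaced by limma, which was tested on simulated data. The number of arrays limits the precision. Bounds replace fold changes where a genotype had 0 arrays well above background.

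The genes and lists were chosen with earlier results of these data known. Named were the 10 genes, from each other list the 2 largest rises and falls among called genes, the 2 brightest cell type markers, the 5 genes most alike by each measure, and genes behind counts of 5 or fewer. Further genes named, such as Stat6, Il4ra, Ccl17, Tnf, Prox1 and Timd4, were chosen for their roles after their values were seen. Some genes that this rule names are not reported here. Alternatives were 75th percentile scaling, normexp (offset 50), no background correction, the deposited table, other filters and probe rules, another variance model, the methods' t-test, blocks for replicate number and slide column, a stricter threshold (0.01) and each array left out.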

Additional observations from a re-analysis of the deposited data

How the results depend on the processing

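Over 20 alternatives no gene of the 10 was called higher, where 10.3% of all genes were in the main run. Of the 10, 9 kept their sign in every alternative they entered, while Retnla turned to -0.54 without WT replicate 1. The sign could change only in some of the alternatives. The other filters, the test of every probe, the variance model, the t-tests, the replicate block and the stricter threshold left the fold changes of the 10 genes as they were. Chil3 was called in 20 of 20, Clec10a in 18 and Arg1 in 17 of the 19 it entered. The number called lower, 7, was 4 with no filter on dim probes, 3 under the methods' t-test after adjustment, 4 with the replicate block, 1 with the slide column as a block, 1 at an adjusted p under 0.01, and 3 to 6 with each array left out, the 3 being Arg1, Chil3 and Clec10a without WT replicate 2, Zip13-KO replicate 1 or Zip13-KO replicate 2. Beside these counts, 1078 of 21365 genes were called lower with no filter, 1051 of 15306 with the replicate block and 1166 of 15405 without WT replicate 2. Retnla ranged from -0.54 to 0.90 (0.8962) with each array left out. The median of the 10 ranged from -1.27 to -0.93 with each array left out. Replicate numbers did not pair the arrays (correlations of deviations -0.02, 0.04 and -0.08, and 0 of 6 arrays closest to their own number), so the replicate block shares only a number. Over all genes (1576 higher, 1282 lower) the calls were 1007 and 721 under the adjusted t-test, 0 and 7 with the slide column as a block, 707 and 505 at an adjusted p under 0.01, 955 and 767 when Zip13-KO replicate 1 was left out, 1016 and 784 when Zip13-KO replicate 2 was, and 2756 and 2354 when all 33038 probes kept were counted. The slide column block leaves 1 Zip13-KO array against WT, and the lone array is assumed to vary like the others. For the other changes the cause was not tested. Signal over background limits Arg1, which has only a bound in Zip13-KO iWAT.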
